A study of Rattus norvegicus with 6 samples.

Results

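The genes described here are the integrin subunits and laminin chains of rat sensory ganglion tissue, in rats with painful diabetic neuropathy (PDN, 3 rats) and in controls (3 rats). Members were taken by name, as every gene whose symbol starts with Itga, Itgb, Lama, Lamb or Lamc, the laminin prefixes being followed by a digit. This gave 38 of the 22536 genes in the table: 10 laminin chains, 24 integrin subunits and 4 genes that only share the start of the name. No gene named Lama3, Lamb4, Itgam or Itgb5 was among them, so rankings, sums and shares below leave these out. The rats were male, the labels call the tissue sensory neuron, and the series title places the work in the dorsal root ganglion, where sensory neuron bodies lie beside the spinal cord. The sources used here do not give the strain, the age or the way diabetes was induced, and nothing in the labels of either group names a drug. PDN is the pain and loss of feeling that can follow diabetes.

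Laminins are cross-shaped proteins of the basement membrane, each built from an alpha, a beta and a gamma chain. Integrins are receptors made of an alpha and a beta subunit that hold cells to laminin, collagen, fibronectin or other cells and pass signals across the membrane. In peripheral nerve, Schwann cells wrap themselves in a laminin sheath and need it, with its integrin and dystroglycan receptors, to sort and myelinate axons. Satellite glia, vessels and the connective tissue of a ganglion carry basement membranes too, and leukocytes use integrins of their own to leave the blood.

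Levels are FPKM, fragments scaled to transcript length and library size, so they can be compared between genes. A constant shared by the deposited tables puts the depth of the libraries at about 51855459 to 62784958 fragments, and between 13093 and 13286 genes reached an FPKM of 1 in each. All 15 neuron markers, 8 of 8 satellite glia markers and 9 of 9 markers of myelinating Schwann cells passed the same filter, so RNA of glia was present beside that of neurons. In such bulk tissue, fewer cells of a type and less RNA per cell cannot be told apart. Skeletal muscle genes summed to 536.5 FPKM in control 2 and 174 in PDN 3, to 33.6 in PDN 1, and to 1.98 to 2.19 in the other 3 libraries. Values are therefore also given without control 2 and PDN 3 where this alters a count. The labels do not describe separate cultures or litters, and an n of 3 stands for 3 rats per group, as the series' design text counts them. Levels of a group are means ± SD (n = 3 each).

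Among the subunits found, beta1, beta4 and beta8 led the integrins of the ganglion, and alpha7, alphav and alpha6 led their partners. Over the controls, Itgb1, the beta subunit shared by most laminin and collagen receptors, stood highest at 125.0 ± 1.47 FPKM. Itgb4, which pairs with alpha6 alone, was at 87.8 ± 4.58, and Itgb8, which pairs with alphav, at 74.8 ± 6.94. Itga7 was at 74.96 ± 2.45 FPKM, Itgav at 65.0 ± 2.86 and Itga6 at 42.6 ± 3.44. Itga7 and Itgb8 lay within their spread of each other, whereas Itgb1 lay above every value of any other member in all 6 libraries. The laminin chains ran lower, led by Lamb1 at 41.6 ± 2.16 FPKM and Lamc1 at 39.3 ± 3.27, which also did not differ beyond their spread. The members as a whole summed to between 635.3 and 746.8 FPKM per library.

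**Figure D1:**
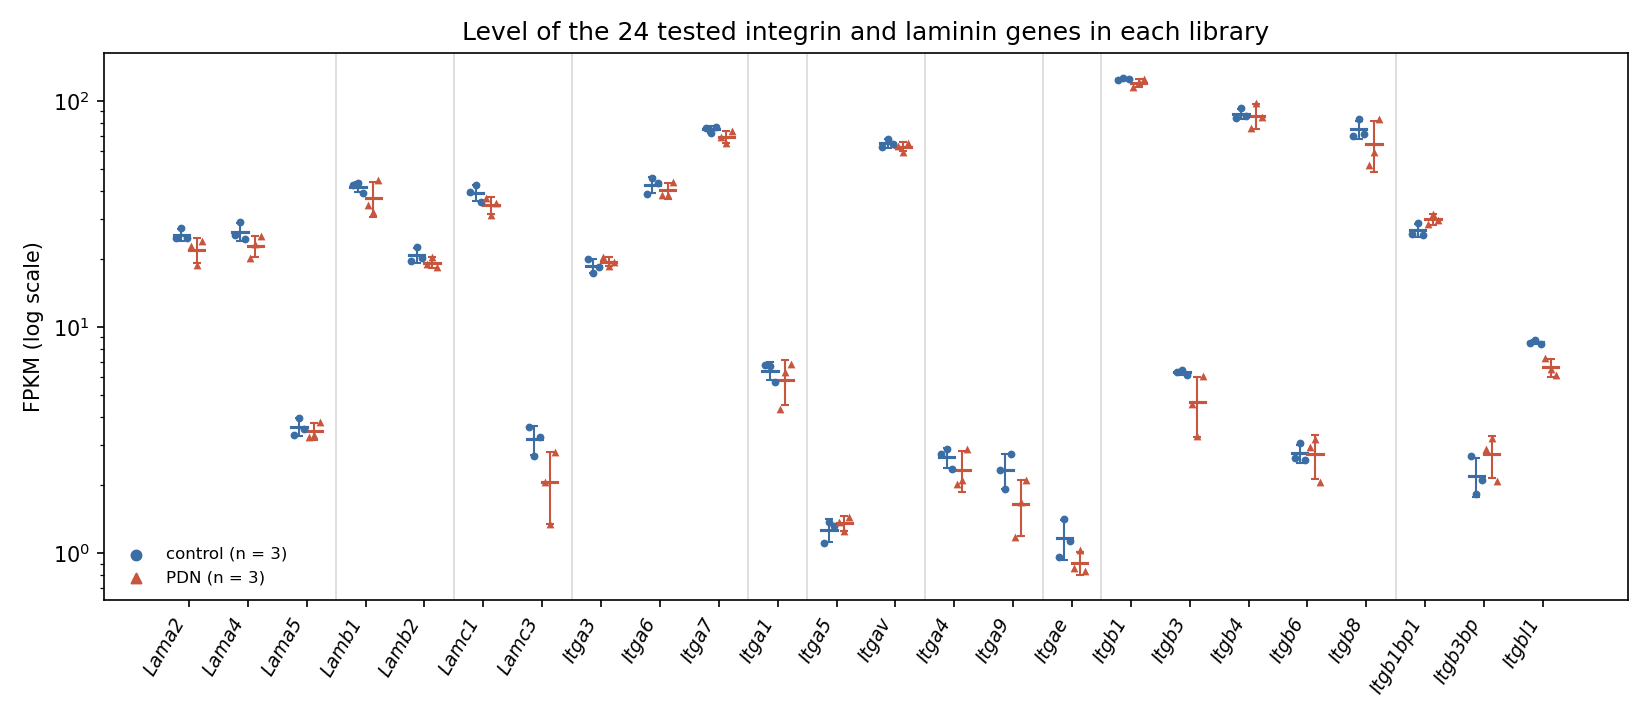
FPKM (log scale) of the 24 members that passed the filter, in each control (circles) and PDN (triangles) library, with the mean and SD of each group, ordered by role. Itgb1 stands highest and Itgae lowest, and the groups lie close together relative to the range of levels between genes.

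The comparison of PDN with control asked which members differ between the groups. A gene was tested where its FPKM was at least 1 in at least 3 libraries, which held for 13282 genes and 24 of the 38 members. Differences are given as PDN minus control in log2(FPKM + 1), a scale on which low genes appear to differ less than they do, and come from limma, a linear model that shares its estimate of the spread across genes. No member passed an adjusted p of 0.05 in limma, where adjustment is by Benjamini-Hochberg over all tested genes, and neither did any other gene (percent called 0). The smallest adjusted p of a member was 0.792, for Itgbl1. At an unadjusted p under 0.05 there were 3 members, all with a lower estimate in PDN (Itgbl1, Lamc3 and Itgb3), and 0 with a higher one. Under median-of-ratios and upper-quartile scaling the 3 were Itgbl1 and Lamc3, with lower estimates, and Itgb1bp1, with a higher one, while Itgb3 had an unadjusted limma p of 0.0582 and 0.0567. Among all tested genes, 2.89% passed that mark on the lower and 1.83% on the higher side, 4.72% in all. The share of higher genes among those was 38.8%, against 49.5% when libraries were scaled by the median of ratios and 48.2% when scaled by the upper quartile. Without PDN 3, 9 members passed the mark, 8 with a lower estimate and 1, Itgb3bp, with a higher one, as did 5.77% of all tested genes. Without control 2 and PDN 3 there were 5 (4.23% of all tested genes), all with a lower estimate and Itgbl1 not among them. Itgbl1 alone remained without control 1 (6.03%), without PDN 1 (3.48%) or without PDN 2 (4.57%).

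Estimates leaned to the lower side. Of the 24 tested members, 20 had an estimate below 0, where 56.6% of all tested genes did, and their median was -0.12, against -0.02 over all tested genes. All 7 tested laminin chains and 12 of 14 tested integrin subunits were among them. The count below 0 was 17 of 24 without control 2, 18 without PDN 1 and 19 without PDN 3. It was 18 without both control 2 and PDN 3. The groups did not overlap in 3 tested members, each time with PDN lower (Lama2, Itgb3 and Itgbl1), and 6.24% of all tested genes separated that way and 3.69% the other way, 9.93% in all. The members were chosen with earlier results of these data known, and no test of the list was made.

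**Figure D2:**
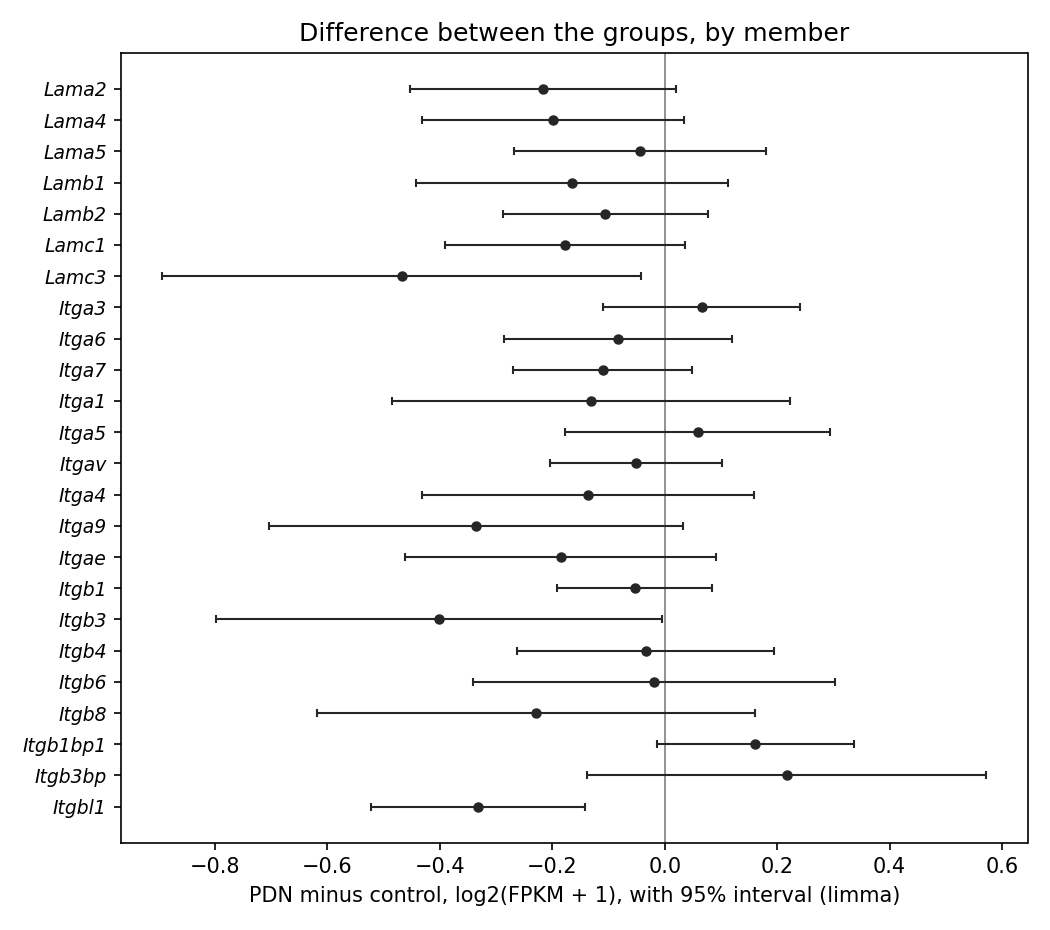
Difference between PDN and control of each tested member on the log2(FPKM + 1) scale, with its 95% interval from limma. Most points lie left of 0, and the intervals of Lamc3, Itgb3 and Itgbl1 do not reach it, with upper bounds of -0.04, -0.0045 and -0.14.

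Among the laminin alpha chains, Lama2 and Lama4 were present in near equal amounts and Lama5 at a fraction of them. Lama2 encodes the alpha2 chain of the Schwann cell basement membrane, whose loss causes a muscular dystrophy with nerve involvement. It was at 24.7, 27.4 and 24.7 FPKM in the controls and at 22.9, 18.9 and 24.1 in PDN 1, PDN 2 and PDN 3. Each PDN value lay below each control value, with PDN 3 nearest, and the log2 difference was -0.22 ± 0.10 (SE; limma adjusted p = 0.999). It was -0.12 without PDN 2. The locus of Lama2 is covered by that of a second gene model, AABR07000583.1, so its values are uncertain. Lama4, the alpha4 chain of vessel walls and of Schwann cells, was at 25.5, 29.0 and 24.6 FPKM in controls against 20.3, 23.2 and 25.2. Here PDN 3 lay among the controls, and the difference was -0.20 ± 0.10 (limma adjusted p = 0.999). The Lama4 locus overlaps that of Fam229b, at 4.72 FPKM in controls and 4.26 in PDN, by 13214 bases. Lama5, found in vessels and many epithelia, was at 3.62 ± 0.327 FPKM in controls and 3.48 ± 0.297 in PDN, and the sign of its difference turned when control 2 was left out. Lama1, the alpha chain of the early embryo, did not exceed 0.0858 FPKM in any library.

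The beta chains were Lamb1 and Lamb2 in a ratio of 1.58 to 2.42 over the libraries. Lamb1 was at 42.5, 43.1 and 39.1 FPKM in controls and at 34.8, 32.4 and 44.7 in PDN, so that PDN 3 was the highest of the 6 and the other PDN libraries the lowest. Its log2 difference was -0.17 ± 0.12 (SE), -0.30 without PDN 3 and -0.07 without PDN 2. Lamb2, a chain enriched at synapses of nerve and muscle, was at 20.8 ± 1.55 FPKM in controls and 19.3 ± 1.07 in PDN, a difference of -0.11 ± 0.08 (SE). Lamb3, a chain of skin laminin, stayed at or below 0.0572 FPKM.

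Lamc1, which enters most laminins, made up the bulk of the gamma chains, and Lamc3 showed the largest log2 difference of any tested member. Lamc1 was at 39.7, 42.3 and 35.8 FPKM in controls and 37.3, 31.3 and 35.3 in PDN, a log2 difference of -0.18 ± 0.09 (SE; limma adjusted p = 0.999). Lamc3 was at 3.62, 2.69 and 3.25 FPKM in controls and at 2.07, 1.35 and 2.80 in PDN. PDN 2 was the lowest, and PDN 3 lay above control 2, so the groups overlapped. The log2 difference of Lamc3 was -0.47 ± 0.18 (SE; 95% interval -0.89 to -0.04), with an unadjusted p of 0.0354 and an adjusted p of 0.999 in limma. It was -0.29 without PDN 2 and -0.63 without PDN 3. The Lamc3 locus (chromosome 3, 9263745 to 9326993 in the file) lies inside that of Fibcd1l1, which was at 0.118 FPKM in controls and 0.170 in PDN, and how fragments were divided is not known here. The 9 endothelial markers summed to 61.5 to 78.4 FPKM in controls and 58.8 to 70.6 in PDN, and 8 of the 9 had a lower mean in PDN. Cldn5 went the other way, at 21.6 ± 3.40 FPKM in controls and 26.8 ± 1.32 in PDN. The part of endothelial cells in the laminin values was not tested.

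The sequences upstream of the 2 main gamma chain genes are shown because their levels lie 10.95 to 23.2 times apart. They are the 250 bases before the transcript start in RefSeq on build GRCr8, 5′ to 3′ on the strand of the gene. Capitals mark matches on either strand to the GC box (GGGCGG), the CCAAT box (CCAAT), the TATA box (TATAAA), the AP-1 site (TGACTCA) or the E-box (CACGTG). Lamc1 (minus strand, chr13:68051987-68052236) has 71.2% G and C, 19 CpG pairs and 5 GC box matches, 2 of which overlap, and Lamc3 (plus strand, chr3:35562739-35562988) has 62.0%, 12 CpG pairs and 1 match.
Lamc1: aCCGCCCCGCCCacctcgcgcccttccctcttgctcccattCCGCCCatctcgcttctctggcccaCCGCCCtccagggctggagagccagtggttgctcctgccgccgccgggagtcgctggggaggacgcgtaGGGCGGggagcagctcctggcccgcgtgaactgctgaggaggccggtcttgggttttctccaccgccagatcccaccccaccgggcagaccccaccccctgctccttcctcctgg
Lamc3: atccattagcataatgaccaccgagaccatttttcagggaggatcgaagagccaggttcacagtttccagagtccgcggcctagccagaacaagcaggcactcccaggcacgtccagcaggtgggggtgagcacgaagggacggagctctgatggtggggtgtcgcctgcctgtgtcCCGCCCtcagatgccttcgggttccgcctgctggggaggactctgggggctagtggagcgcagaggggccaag
Such windows were found for 29 of the 38 members. A GC box occurred in 14 of the 29 (48.3%) and in 30.5% of all 33469 promoters, and a CCAAT box in 7 (24.1%) against 34.0%. TATA boxes were in 2 (6.90% against 12.9%), AP-1 sites in 1 (3.45% against 4.05%) and E-boxes in 0 (against 5.59%). The median G and C content was 57.2% in the members and 51.2% in all promoters. A match is a description of these letters only.

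The make-up of the laminin classes was compared as the share of each chain in the summed FPKM of its class, which does not depend on library scaling. Lama2 took 46.0% ± 0.671 of the alpha chains in controls and 45.4% ± 3.91 in PDN, and Lama4 took 47.4% ± 0.715 and 47.3% ± 3.73. Lama5 was the 1 laminin chain whose share separated, at 6.24%, 6.59% and 6.67% in controls and 7.06%, 7.33% and 7.18% in PDN. Of the gamma chains, the level of Lamc1 was 12.6 ± 2.75 times that of Lamc3 in controls and 17.9 ± 5.26 times in PDN, and the groups overlapped, PDN 3 lying among the controls. Among 34 shares of laminin and integrin classes, 5 separated (14.7%), where the FPKM of 9.93% of all tested genes did. They were those of Lama5 and Itga5 (higher in PDN) and of Itgad, Itgb3 and Itgb7 (lower). The shares of Itga5, Itgad and Itgb7 did not exceed 0.838% of their class in any library. Shares within a class depend on each other, since a rise in 1 lowers the rest. The exact two-sided permutation test cannot go below p = 0.1 with 3 against 3, which each of these reached, and the smallest adjusted p over the 34 was 0.523.

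**Figure D3:**
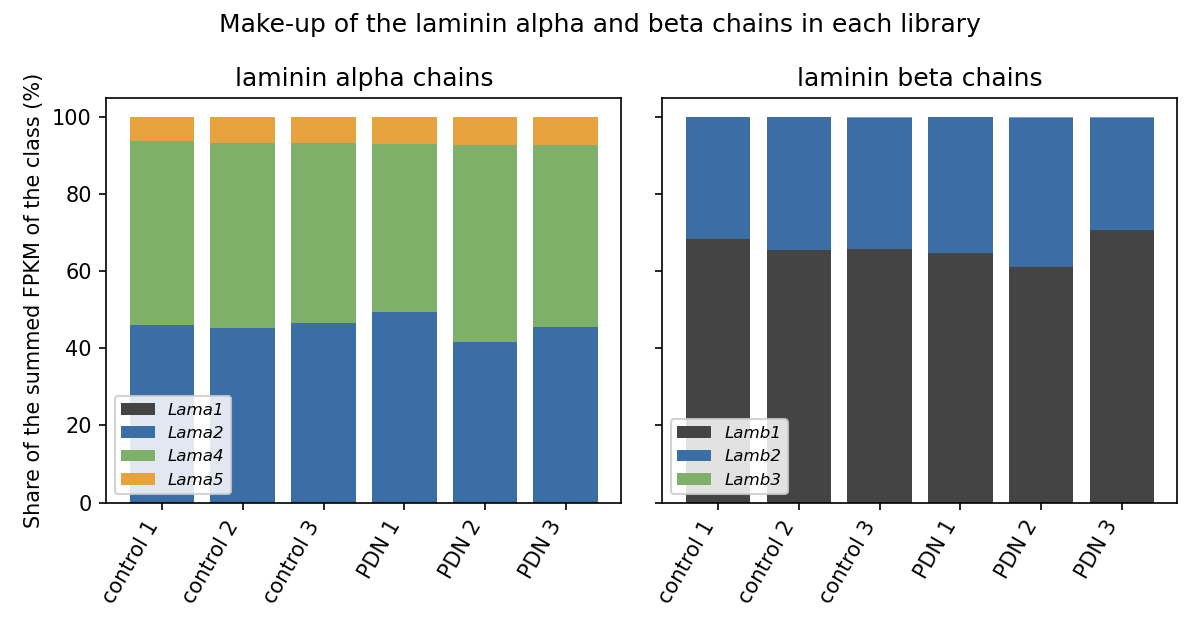
Share (%) of each chain in the summed FPKM of the laminin alpha and beta chains, with a bar for each library. Lama2 and Lama4 divide the alpha chains almost evenly, and Lamb1 takes 61.2% to 70.7% of the beta chains. Lama1 and Lamb3 are too low to be seen.

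The laminin-binding alpha integrins were the strongest class of alpha subunits, at 134.8 to 138.5 FPKM in controls and 122.2 to 137.4 in PDN in sum. Itga7, a laminin receptor of Schwann cells and muscle, was at 75.9, 72.2 and 76.8 FPKM in controls and 69.1, 65.2 and 74.0 in PDN. PDN 3 lay between the controls, and the log2 difference was -0.11 ± 0.07 (SE; limma adjusted p = 0.999). Control 2, with the most muscle RNA of the controls, had the lowest Itga7 value among them. PDN 3, with the most muscle RNA of the PDN libraries, had the highest Itga7 value of that group. The part of muscle RNA in the Itga7 values was not tested. Itga6, which pairs with beta1 or beta4, was at 38.9, 45.7 and 43.2 FPKM in controls and 38.3, 38.4 and 43.9 in PDN, a difference of -0.08 ± 0.09 (SE). Itga3, the third laminin receptor of the class, was at 18.6 ± 1.32 and 19.5 ± 0.852 FPKM, a difference of 0.07 ± 0.07 (SE), and kept a positive sign under all 17 alternatives.

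Alpha integrins for other ligands differed by small amounts. Itgav, which with beta3 or beta8 binds the RGD motif of matrix proteins and of latent TGF-beta, was at 62.4, 68.0 and 64.6 FPKM in controls and 63.3, 59.6 and 65.2 in PDN. The groups overlapped, with a log2 difference of -0.05 ± 0.07 (SE). Itga5, the fibronectin receptor, was at 1.27 ± 0.142 FPKM in controls and 1.36 ± 0.101 in PDN, a difference of 0.06 ± 0.10 (SE). Itga1, a collagen receptor, was at 6.77, 6.71 and 5.74 FPKM in controls and at 4.35, 6.33 and 6.85 in PDN. Only PDN 1 was low, and the difference of Itga1 was -0.13 ± 0.15 (SE) and turned to 0.04 without PDN 1. The Itga1 locus overlaps by 1888 bases that of Pelo, which was at 17.0 FPKM in controls and 16.2 in PDN. How fragments there were divided is not known here. The collagen receptor genes Itga2, Itga10 and Itga11, and Itga8 and Itga2b of the RGD class, stayed below the filter, between 0.0450 and 1.27 FPKM. Among them, Itga11 had a lowest control value of 0.860 FPKM and a highest PDN value of 0.846.

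Itga4 and Itga9 form a class of their own, receptors for the adhesion protein VCAM1, fibronectin or tenascin. Itga9 was at 2.34, 1.92 and 2.74 FPKM in controls and at 1.18, 1.69 and 2.10 in PDN. PDN 1 was the lowest, and PDN 3 exceeded control 2. The log2 difference of Itga9 was -0.34 ± 0.16 (SE; limma unadjusted p = 0.0681, adjusted p = 0.999), -0.45 without PDN 3 and -0.20 without PDN 1. Itga4 was at 2.73, 2.88 and 2.36 FPKM in controls and 2.02, 2.10 and 2.90 in PDN, a difference of -0.14 ± 0.13 (SE).

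Of the beta subunits, Itgb3 showed the largest log2 difference and Itgb1, Itgb4 and Itgb6 the smallest. Itgb3, which pairs with alphav and, on platelets, with the product of Itga2b, was at 6.35, 6.45 and 6.13 FPKM in controls and at 4.58, 3.30 and 6.08 in PDN. The controls lay close together, PDN 2 was the lowest, and PDN 3 lay just under the lowest control. The difference of Itgb3 was -0.40 ± 0.17 (SE), with an unadjusted p of 0.048 and an adjusted p of 0.999 in limma, and it was -0.22 without PDN 2 and -0.58 without PDN 3. The summed platelet markers were at 1.25 to 2.79 FPKM in controls and 1.10 to 1.77 in PDN, and 4 of the 5 had a lower mean in PDN. Their part in the Itgb3 values was not tested. Of these markers Pf4 alone passed the filter, and Gp9 did not exceed 0.036 FPKM.

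Itgb8 was at 70.1, 82.8 and 71.6 FPKM in controls and at 51.9, 59.2 and 83.3 in PDN. PDN 3 was the highest library and the other PDN libraries the lowest, as for Lamb1, and the difference of -0.23 ± 0.17 (SE) became -0.42 without PDN 3 and -0.09 without PDN 1. Itgb1 was at 123.3, 126.1 and 125.6 FPKM in controls and 115.4, 121.3 and 124.7 in PDN, a difference of -0.05 ± 0.06 (SE; 95% interval -0.19 to 0.08). Itgb4, the beta subunit that anchors Schwann cells and perineurial cells, was at 84.4, 93.0 and 86.1 FPKM in controls and 76.0, 97.6 and 84.7 in PDN. PDN libraries held both the highest and the lowest Itgb4 value, and the sign of its difference (-0.03 ± 0.10, SE) turned without control 2 or PDN 1. The Itgb4 locus overlaps that of Galk1, at 13.3 FPKM in controls and 13.9 in PDN, by 776 bases. Itgb6, another partner of alphav, was at 2.76 ± 0.260 and 2.74 ± 0.606 FPKM, a difference of -0.02 ± 0.14 (SE) whose sign turned in 3 alternatives that left out control 2, PDN 3 or both.

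The integrins of leukocytes that were found, Itgam not among them, were near or below the filter, and most had lower values in PDN. Itgad, an alpha subunit of macrophages, was at 1.21, 0.993 and 1.86 FPKM in controls and at 0.275, 0.664 and 0.839 in PDN. Itgb2, the beta partner of the Itgad, Itgal and Itgax products, was at 0.668, 0.751 and 0.687 FPKM in controls and 0.587, 0.569 and 0.512 in PDN. Itgb7, found on lymphocytes, was at 0.281, 0.240 and 0.241 FPKM in controls and 0.158, 0.0704 and 0.178 in PDN. For Itgad, Itgb2 and Itgb7 each control lay above each PDN library, and with Itga11 they make 4 of the 14 members below the filter that separated so, with 0 the other way. Of all 9254 genes below the filter, 2.98% separated with PDN lower and 2.33% with PDN higher. Among the 2958 of these above 0 FPKM in every library, as the 14 members were, the shares were 7.03% and 5.38%. Itgal, the alpha subunit of the lymphocyte integrin LFA-1, was at 0.995, 0.711 and 1.02 FPKM in controls and 0.391, 0.388 and 0.763 in PDN, where PDN 3 lay above control 2.

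Itgax did not follow, at 0.303 ± 0.118 FPKM in controls and 0.374 ± 0.109 in PDN. Its locus lies wholly inside that of Itgad in the deposited table, and how fragments of the 2 were divided is not given in the sources used here. Itgae, which binds E-cadherin, was tested, having reached 1 FPKM in 2 controls and 1 PDN library, and stood at 1.17 ± 0.235 against 0.906 ± 0.107 FPKM. Its locus overlaps those of 5 other genes, so its values are uncertain. When genes were tested without a filter, Itgad, Itgal, Itgb2 and Itgb7 had an unadjusted p under 0.05 and an adjusted p of 0.965 each in limma. In that fit 5.07% of all 18748 genes were at that mark, 554 with a lower estimate and 396 with a higher one. Itgax had an estimate of 0.08, on the higher side (limma unadjusted p = 0.394).

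Macrophage markers were also lower in PDN as a sum. The 11 markers summed to 57.1, 43.8 and 58.0 FPKM in controls and 44.8, 33.5 and 43.2 in PDN, and 8 of the 11 had a lower mean in PDN. The markers Cx3cr1, Csf1r, Adgre1 and Aif1 were lower in every PDN library than in every control, as were 6.24% of all tested genes. By contrast, C1qb, Mrc1 and Cd163 had a higher mean in PDN. The part of macrophages in the integrin values was not tested. The 8 markers of T and NK cells summed to only 0.964 to 1.18 FPKM in controls and 1.04 to 1.35 in PDN, and the 5 of neutrophils to 1.49 to 2.35 and 0.625 to 2.04. Red blood cell genes summed to 176.1 to 280.8 FPKM in controls and 86.7 to 205.5 in PDN.

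**Figure D4:**
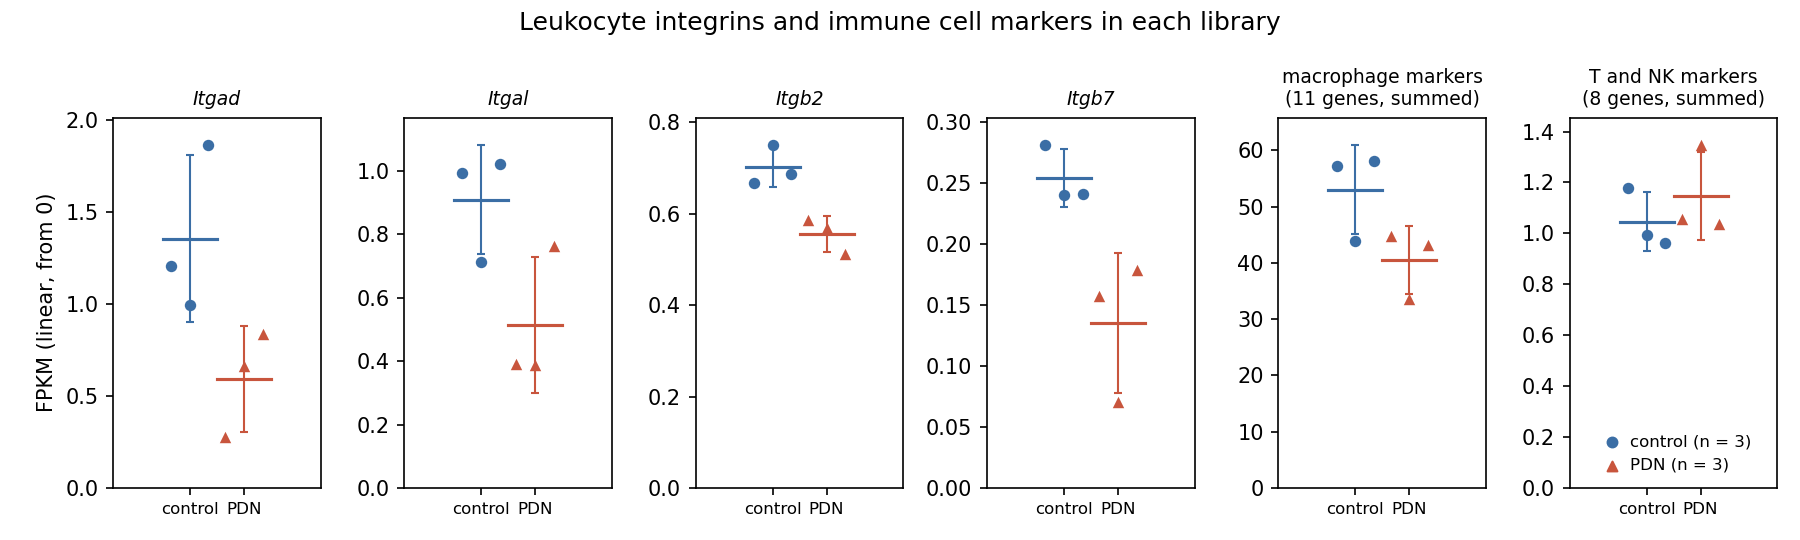
FPKM in each library (points), with mean and SD of each group (n = 3), of 4 leukocyte integrin genes and of summed macrophage and T and NK cell markers, on linear axes from 0. Itgad, Itgb2 and Itgb7 separate the groups, Itgal does not, and the macrophage sum overlaps between 43.8 in control 2 and 44.8 in PDN 1.

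The 4 genes that share only the name held the smallest p of all members. Itgbl1 encodes a secreted protein with repeats like those in the stalk of beta integrins and is not a subunit. It was at 8.53, 8.77 and 8.46 FPKM in controls and at 7.27, 6.51 and 6.12 in PDN. The controls lay within a narrow band and every PDN library lay below it, PDN 1 the nearest. Itgbl1 had a log2 difference of -0.33 ± 0.08 (SE; 95% interval -0.52 to -0.14), and its unadjusted p of 0.00423 ranked 70 among the 13282 genes, with an adjusted p of 0.792 in limma. Its difference ran from -0.39 to -0.27 over 17 alternatives, and the unadjusted p stayed under 0.05 in 16 of them, the exception being the fit without control 2 and PDN 3. Itgbl1 spans 110114148 to 110378969 of chromosome 15 as the file gives it, on a build not given in the sources used here, and overlaps no other gene of the table. The 250 bases upstream of its start (RefSeq, build GRCr8, plus strand, chr15:107186542-107186791) are shown because it had the smallest p, with the same marking, and hold 1 GC box match, 6 CpG pairs and 49.6% G and C.
Itgbl1: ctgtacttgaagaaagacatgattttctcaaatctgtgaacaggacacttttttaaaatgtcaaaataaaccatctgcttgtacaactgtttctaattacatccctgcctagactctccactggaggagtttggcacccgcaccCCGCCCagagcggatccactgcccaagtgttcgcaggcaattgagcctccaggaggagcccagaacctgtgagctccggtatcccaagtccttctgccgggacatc
Fibroblast markers, as a sum of 9 genes, were at 377.2 to 419.0 FPKM in controls and 325.1 to 365.5 in PDN, and 8 of the 9 had a lower mean in PDN. Of the 8 satellite glia markers, 6 had a lower mean in PDN, with a median log2 difference of -0.23 over the 8. Kcnj10, Ptprz1 and Gfap were lower in every PDN library than in every control, as were 6.24% of all tested genes. Glul and Apoe had a higher mean in PDN, at 107.2 against 102.3 and 1510 against 1500 FPKM. The sum of the 8 markers, to which Apoe gave the most, was at 1604 to 1870 FPKM in controls and 1650 to 1789 in PDN. The part of fibroblasts and satellite glia in the values of Itgbl1 and of the laminins was not tested.

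Itgb1bp1, whose product ICAP1 binds the tail of beta1 and restrains its activation, was on the higher side in PDN. It was at 25.8, 28.9 and 25.7 FPKM in controls and 28.5, 31.7 and 29.8 in PDN, where PDN 1 lay below control 2. Its log2 difference was 0.16 ± 0.07 (SE; limma unadjusted p = 0.0659, adjusted p = 0.999), with an unadjusted p of 0.0292 and 0.0324 under the 2 scalings, and stayed positive in all 17 alternatives. The locus lies within that of Asap2. Itgb3bp, a centromere protein despite its name, was at 2.20 ± 0.432 and 2.73 ± 0.579 FPKM, and its locus overlaps 3 other genes. Itgb1bp2, which encodes the muscle protein melusin, was at only 0.0689 to 0.312 FPKM. Its highest value was in control 1, a library with almost no muscle RNA. Among the PDN libraries it was highest in PDN 3, which had the most muscle RNA of that group, at 0.211 FPKM. The part of muscle RNA in these values was not tested.

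The lower values were not spread evenly over the PDN rats. PDN 1 lay below all controls in 17 of the 24 tested members, PDN 2 in 15 and PDN 3 in 7. Over all tested genes the same counts came to 36.1%, 24.3% and 22.2% of genes, which for the members were 70.8%, 62.5% and 29.2%. Control 2 was the highest of the 6 libraries in 11 members (45.8%, against 23.8% of all tested genes). The SD was larger in PDN than in controls in 15 of the 24 members (62.5%, against 48.9% of all tested genes). The sum of pericyte and smooth muscle markers was lowest in PDN 1 (58.2 FPKM), followed by PDN 2 (76.1) and PDN 3 (86.3), where the controls ran from 80.1 to 94.98. Their part in the members' values was not tested.

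The other lists of the pathway are given by their counts, beginning with the partners of the laminins in the basement membrane. Of 12 tested genes 0 passed the adjusted threshold, 4 had an unadjusted p under 0.05 on the lower side and 0 on the higher, and the median difference was -0.15. Among all tested genes 2.89% were at that mark on the lower side and 1.83% on the higher, with a median of -0.02. No test of these lists was made. Col18a1, a collagen of vessel basement membranes, was at 13.9 ± 0.406 FPKM in controls and 11.1 ± 0.491 in PDN. Nid2, which links laminin to collagen IV, was at 13.4 ± 0.218 and 10.6 ± 0.924 FPKM. The limma adjusted p was 0.744 for Col18a1 and 0.811 for Nid2. Other integrin ligands had 5 of 23 tested genes at that mark on the lower side and 1 on the higher, with a median of -0.13. Vcam1, the ligand of alpha4 integrins, was at 4.71 ± 0.517 FPKM in controls and 3.23 ± 0.294 in PDN (limma adjusted p = 0.782). Tnc, the tenascin that alpha9 binds, was at 19.4 ± 1.53 and 12.2 ± 3.28 FPKM (limma adjusted p = 0.811).

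Dystroglycan and its partners had a median of -0.03 and 1 of 14 genes at an unadjusted p under 0.05, with a lower estimate, as 2.89% of all tested genes had. That gene was Pomgnt1, which builds the sugar chains that laminin binds, at 19.4 ± 1.35 FPKM in controls and 16.9 ± 0.790 in PDN, and Dag1, dystroglycan itself, was at 129.2 ± 7.27 and 116.3 ± 12.9. The list of intracellular adhesion proteins, which holds kinases and adaptors beside links to actin, had 0 of 34 tested genes at that mark in either direction. Its median was -0.04. The kindlin gene Fermt2, whose product activates integrins, was at 48.3 ± 1.54 and 44.1 ± 2.35 FPKM, and Ptk2, focal adhesion kinase, at 11.8 ± 0.169 and 10.6 ± 0.833. The 5 membrane partners of integrins had 0 as well, with Cd82 at 48.9 ± 1.06 and 53.8 ± 4.06 FPKM and Cd151, which binds alpha3 and alpha6, at 99.5 ± 19.1 and 87.3 ± 12.5. No gene of these lists passed the adjusted threshold in limma.

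**Figure D5:**
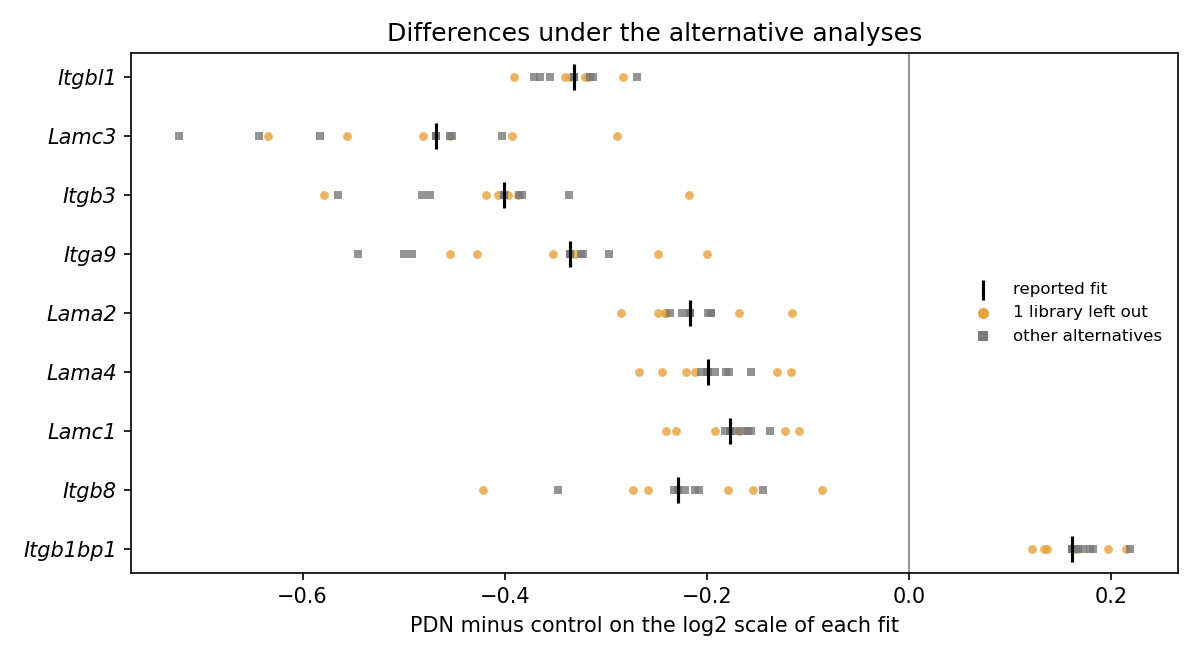
PDN minus control on the log2 scale of each fit for 9 members, chosen after their values were seen, in the reported analysis (bar), with 1 library left out (orange circles) and under the other alternatives (grey squares). Itga1, Itgb4, Itgb6 and Lama5, whose signs turned in some alternatives, are not among the 9 shown, each of which keeps its sign. Of the 9, Itgbl1 varies least relative to its size, from -0.39 to -0.27, while Itgb8 runs from -0.42 to -0.09.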

How the data were processed

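RNA sequencing libraries of 6 male rats, 3 controls and 3 with PDN, were made strand-specific for long noncoding RNA from 1 µg of total RNA, per the labels' protocols. The FPKM table was used as the authors deposited it, and the aligner, quantifier, annotation and build behind it are not stated in those sources. The other deposited table carries a name that speaks of read counts, yet its values were used as a score and only as an alternative. Of its values above 1000, 54.5% to 54.9% per library equal FPKM times genomic span times 1 constant, within a relative tolerance of 0.001, and library totals reach 573396748 to 684759626. That constant is the only measure of depth. Fragments per gene could not be had, so counting error has no interval here.

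Tested genes reached 1 FPKM in 3 or more libraries. They were fitted as log2(FPKM + 1) with limma 3.58.1 (R 4.3.3), with an intensity trend and the group as the only term. Shares were tested by exact permutation of the libraries. The fit was tested on simulated data. The members, the lists and the rule for named genes were chosen with earlier results of these data known. The rule named tested members with an unadjusted p under 0.05, the 3 highest of each role, and the 2 genes of smallest p in each pathway list. Other named genes were chosen after their values were seen. Alternatives were another pseudocount (0.1), no filter, a filter at a mean FPKM of 5, robust empirical Bayes, no trend, array weights, 2 scalings, the whole-number table, a replicate block and libraries left out. Promoter sequences are from RefSeq, build GRCr8. Some values are not reported here.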

Additional observations from a re-analysis of the deposited data

How the results depend on the processing

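No member passed the adjusted threshold under any of 17 alternatives, with smallest adjusted p-values in limma of 0.591 upward. Over all genes, the count past the threshold moved from 0 to 1 without the filter, 1 with robust empirical Bayes, 1 without the intensity trend, 2 in the whole-number table and 9 without control 2 and PDN 3, and ran from 0 to 6 when single libraries were left out. Members at an unadjusted p under 0.05 moved from 3 to 6 of 38 without the filter, 1 of 16 with the filter at a mean FPKM of 5, 1 with array weights and 5 without control 2 and PDN 3, and ran from 1 to 9 in the leave-one-out fits. Over all genes of each fit, the share at that mark was 5.07% without the filter and 4.02% with the stricter one. It was 5.21% with array weights and 4.23% without control 2 and PDN 3, and ran from 3.48% to 6.03% in the leave-one-out fits. The cause of these moves was not tested, other than that the filters change which genes enter. The median difference of the tested members lay between -0.159 and -0.0779 throughout, always below 0. Shares whose groups did not overlap went from 5 to 20 without control 2 and PDN 3. They numbered between 5 and 18 with 1 library left out. Groups of fewer libraries separate more easily, and the part of this in the counts was not tested. Signs turned for Itga1 (0.037 without PDN 1), Itgb4 (0.015 without control 2 and PDN 3), Itgb6 (0.18 without control 2 and PDN 3) and Lama5. With single libraries left out, Itga1 ran from -0.24 to 0.037, Itgb4 from -0.13 to 0.051, Itgb6 from -0.11 to 0.12 and Lama5 from -0.098 to 0.012. With whole-number values, 24 of 24 tested members kept the sign of their difference. Deviations from the group means correlated at 0.171, -0.12 and -0.0865 between libraries of equal replicate number, for numbers 1, 2 and 3. With 3 libraries per group these values cannot tell whether equal numbers share a batch or litter, which the labels do not say. With the replicate block, 0 genes passed the threshold and the median of the members was -0.12. In that limma fit 4 members had an unadjusted p under 0.05, as had 6.39% of all tested genes. Itgbl1, Lamc3 and Itga9 were lower and Itgb1bp1 higher, with Itgb3 at an unadjusted limma p of 0.0549.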
